A study of Homo sapiens with 28 samples.

Results

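The effect of a miR-380-3p mimic on the messenger RNA of Kelly cells was described from 8 of the 28 libraries of the series, 4 transfected with the mimic (replicates 1 to 4) and 4 with a scrambled control (replicates 1, 2, 4 and 5). The libraries were chosen by their labels, and every gene that passed a filter on low counts was compared. Kelly is an established line from neuroblastoma, a childhood tumour of the sympathetic nervous system, and carries an amplified MYCN gene. All groups were the same cells, reverse transfected with 25 nM of a Dharmacon mimic by Dharmafect 1 and harvested after 48 h. Total RNA was made into stranded libraries of messenger RNA. The other 20 libraries came from cells given mimics of miR-100-3p, miR-1283, miR-1915-3p, miR-485-3p or miR-99b-5p, 4 libraries each. A mimic supplies a duplex at a dose that the labels do not relate to the level of the natural microRNA, and the labels name no untransfected cells.

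A microRNA is a short RNA that an Argonaute protein carries to messenger RNAs. It pairs through its seed, positions 2 to 8 from its 5′ end, mostly with sites in 3′ untranslated regions (UTRs), and paired messages are destabilised and translated less. The longest pairing, an 8mer, matches positions 2 to 8 and has an A opposite position 1; a 7mer-m8 matches positions 2 to 8 alone, a 7mer-A1 matches 2 to 7 with the A, and a 6mer matches 2 to 7. MIR380 lies in the imprinted microRNA cluster of 14q32, a region expressed in brain and neuroendocrine tissue, near MIR379 and MIR411.

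The mature sequences of both arms of the MIR380 hairpin (chr14:101025017-101025077, plus strand) and of its neighbours are shown because the results turn on the seed, which is in capitals. They were taken from RefSeq on GRCh38.p14. The guide strand supplied here, miR-380-3p, lies at chr14:101025056-101025077.
hsa-miR-380-3p: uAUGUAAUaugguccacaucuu
hsa-miR-380-5p: uGGUUGACcauagaacaugcgc
hsa-miR-379-3p: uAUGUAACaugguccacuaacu
hsa-miR-411-3p: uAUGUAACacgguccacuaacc
Of the 22 positions of miR-380-3p, 17 are identical in miR-379-3p and 15 in miR-411-3p. Both neighbours share positions 2 to 7 with miR-380-3p but not position 8. Their seeds are identical, and the complement differs from that of the miR-380-3p seed in the base that separates a 7mer-m8 from a 6mer.

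The 3′ UTR matches of 8 genes that fell under the mimic are printed 5′ to 3′ as messenger RNA strand in DNA letters, with the match in capitals and surrounding bases in lower case. They come from GENCODE release 29 transcripts on GRCh38. They are shown to let the match be read against the seed, and each gene's values follow below.
IGF2: agcagacttgcagaATTACATAgaga
TGFBR1: agaatgagtgacatATTACATAggaa
RAB21: aaaatacattgtaaATTACATAttaa
UBR7: ttactggacttataATTACATActta
HNRNPR: tggatttgggatagATTACATAggag
PDK1: gtaatggacagaatATTACATAcaaa
SUMO2: ctttaaagaccaagATTACATtctca
TMEM30A: tcagaggtggcttaATTACATtgaaa
The first 6 are 8mers and the last pair are 7mer-m8 matches. The 8mers lie at chr11:2130677-2130684 (minus strand, IGF2), chr9:99151166-99151173 (plus, TGFBR1), chr12:71786549-71786556 (plus, RAB21), chr14:93229157-93229164 (plus, UBR7), chr1:23310095-23310102 (minus, HNRNPR) and chr2:172598392-172598399 (plus, PDK1). The 7mers lie at chr17:75168283-75168289 (minus, SUMO2) and chr6:75254758-75254764 (minus, TMEM30A). TGFBR1 holds 4 matches of at least 7mer-m8, HNRNPR 3 and RAB21 2.

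Totals of the 8 libraries ran from 11.48 M to 17.74 M expected counts. Pairs of libraries correlated at 0.977 to 0.990 in log2 CPM (counts scaled to a common library size, per 1e6), as a description. Whether replicates were separate cultures is not in the labels, so p-values measure only the spread between libraries, which may be technical. Markers of neuroblastoma cells were expressed in both groups. The transcription factor HAND2 was at 618 ± 36.9 CPM in the controls and 764 ± 110 CPM under the mimic (SD, n = 4; 0.31, adjusted p = 0.0957, edgeR) and GATA3 at 248 ± 36.1 and 261 ± 45.0 CPM (0.08, adjusted p = 0.845), and neither was called; HAND2 was called higher with the GC slope of each library as a covariate (explained below) and without mimic replicate 1, and its change was 0.22 to 0.39 over the alternatives. TH, DBH and MYCN were called lower, with values given below. Sums over 6 markers each, given as ranges for the controls and then the mimic, were 2.86 to 3.35 CPM against 2.37 to 3.13 for endothelial cells, with PECAM1 at 0, and 1.73 to 2.82 against 1.69 to 2.41 for Schwann cells, with S100B, SOX10 and FABP7 at 0. Of 6 blood markers 3 were matched, and they summed to at most 0.152 and 0.253 CPM. Epithelial markers, of which 4 of 6 were matched, summed to 1.81 to 3.55 and 1.34 to 1.5 CPM, with KRT18 at 0 and KRT19 lower under the mimic (-1.01 ± 0.22, adjusted p = 0.00317). Fibroblast markers summed to 78.3 to 88.4 and 61.1 to 70.3 CPM, most of it PDGFRB, a growth factor receptor that was lower under the mimic (-0.44 ± 0.10, adjusted p = 0.0032), with COL1A2 and DCN at 0. The collagen chain COL1A1, another of these markers, was higher at 11.96 ± 1.15 CPM against 8.24 ± 1.70 CPM (0.54 ± 0.16, adjusted p = 0.0332), a call lost with no filter on low counts and without any one of mimic replicates 1, 3 and 4 or control replicates 1, 2 and 5.

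The first comparison asked which messages differed between mimic and control. Differences are log2 changes, mimic minus control, given as estimate ± standard error with n = 4 libraries a group, from the quasi-likelihood test of edgeR with Benjamini-Hochberg adjustment over all 15058 genes tested. Genes called at an adjusted p under 0.05 made up 10.9% of those tested, 5.6% higher (843) and 5.25% lower (791). Most differences were small. The median size was 0.42 among genes called higher and 0.54 among genes called lower, and 1.28% of all genes were called with a change of at least 2-fold, 87 higher and 105 lower. In 17.4% of all genes the 4 libraries of one group lay wholly above the 4 of the other, and this held for 741 of the genes called higher and 705 of those called lower. Leaving out miR-380-3p replicate 3 brought the calls down to 1056, with 520 higher. Leaving out replicate 4 left 549 higher, and taking the GC slope of each library (the slope of its log counts on gene GC content) as a covariate raised the calls to 2778.

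Genes with a seed match were called lower more often the longer the match was. Of the 12662 tested genes with a 3′ UTR, 5.65% were called lower and 6.29% higher. Among the 604 genes whose longest match was an 8mer, 134 were called lower, which is 22.2%, and 2.98% were called higher. The share called lower was 10.2% of 1378 genes with a 7mer-m8, 7.51% of 1025 with a 7mer-A1, 4.04% of 2080 with a 6mer and 3.68% of 7575 with no match. Of the 1982 genes with at least a 7mer-m8, 13.9% were called lower (95% Wilson interval 12.4 to 15.5, counting error only), against 4.12% of the other 10680. Genes are not independent replicates, so these shares carry no test.

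The share called lower also differed with the number of matches. It was 11.6% among 1532 genes with 1 match of at least 7mer-m8, 20.8% among 342 with 2, 21.9% among 73 with 3 and 28.6% (10 of 35) among those with 4 or more. Counting 8mers only, it was 21.0% of 548 genes with 1, 30.8% of 52 with 2 and 3 of 4 genes with 3 or more. The shares by number of matches were not taken within bins of UTR length, and a longer UTR has room for more matches. Genes with and without a match were compared within 4 equal bins of genes. Within bins of UTR length and of UTR GC content, 12.4% to 16.3% of the genes with a match were called lower, against 3.30% to 5.01% of those without. In the bin of lowest expression the shares were 6.53% and 3.45%.

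**Figure D1:**
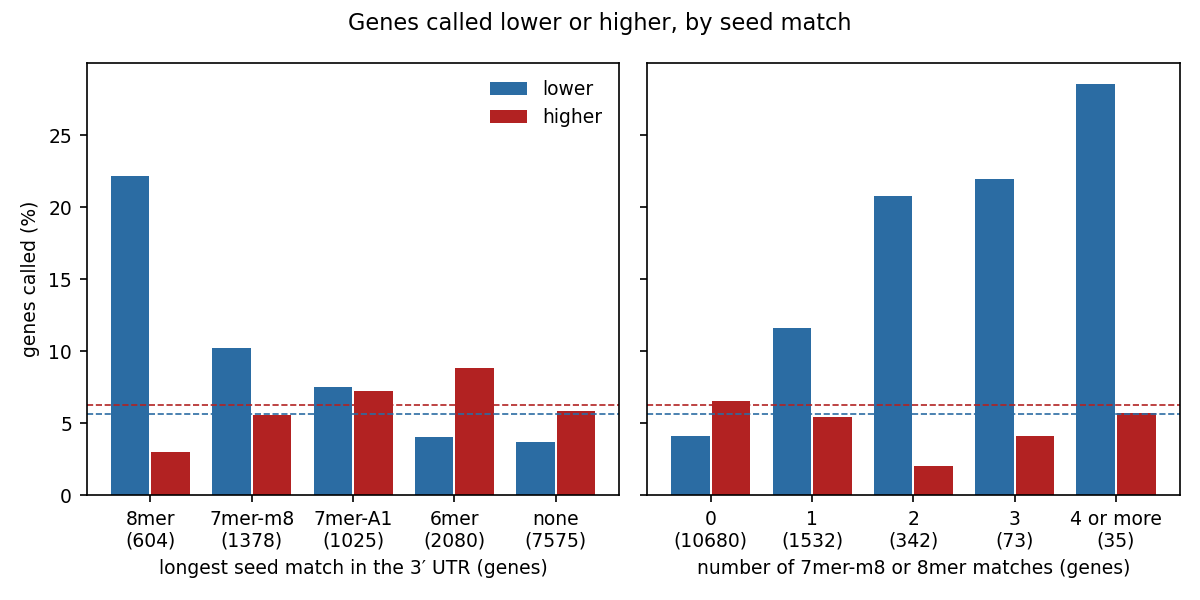
The bars give the percent of genes called lower (blue) and higher (red) against the scrambled control, by the longest seed match in the 3′ UTR (left) and by the number of matches of at least 7mer-m8 (right), with the number of genes under each pair of bars. The dashed lines mark the shares over all 12662 tested genes with a 3′ UTR, 5.65% lower and 6.29% higher; the lower share runs from 22.2% at an 8mer to 3.68% with no match.

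The share called lower was highest for matches to the 5′ end of the 3p arm. Each of the 16 windows of 7 bases along miR-380-3p was complemented and searched in the same UTRs. The share of genes called lower was 12.6% for positions 1 to 7, 13.9% for 2 to 8, 11.0% for 3 to 9 and 10.1% for 4 to 10, and 5.82% to 8.36% for the windows that began at position 5 or later. Neighbouring windows share 6 bases and so many of their genes. Along miR-380-5p, the other arm, the shares ran from 5.12% to 7.63%, with 5.39% at its own seed. The share also differed with the base opposite position 8. Genes without the miR-380-3p heptamer were called lower in 5.73% of 994 cases where that base was G, which is the heptamer complementary to the miR-379-3p and miR-411-3p seed, in 4.31% of 998 where it was C and in 5.44% of 2005 where it was T.

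**Figure D2:**
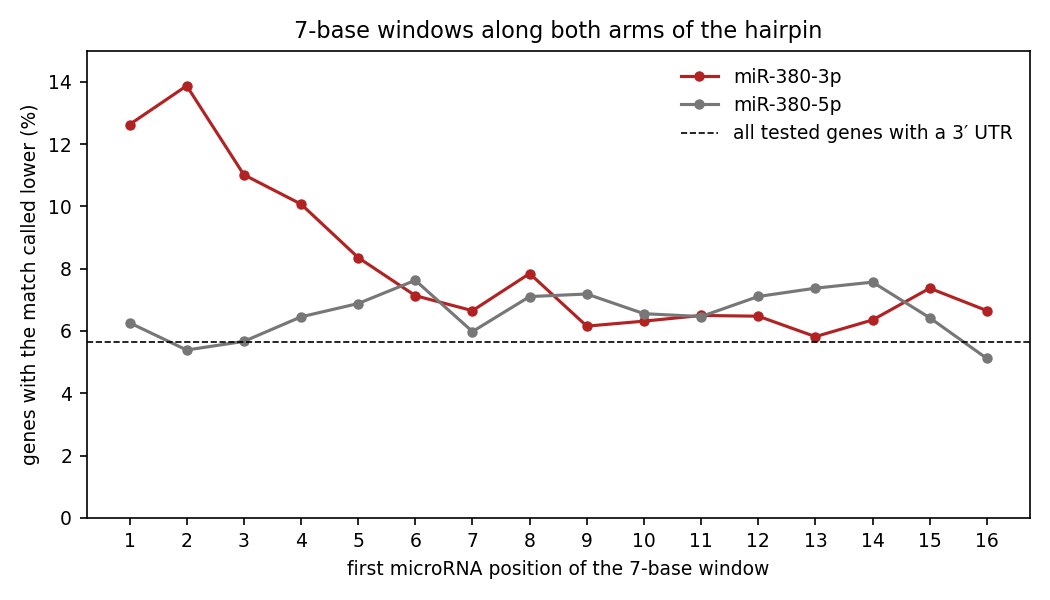
Each point is a 7-base window along miR-380-3p (red) or miR-380-5p (grey), placed by its first position, and its height is the percent of genes called lower among those whose 3′ UTR holds the complement. The red line peaks at the window of positions 2 to 8 with 13.9%, while the grey line stays between 5.12% and 7.63%, near the 5.65% of all tested genes with a 3′ UTR (dashed).

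Matches in coding sequence were called less often. A heptamer in the 3′ UTR alone was held by 1676 genes, of which 13.8% were called lower, and one in coding sequence alone by 657, of which 6.54% were called lower. The share was 14.4% of 306 genes with both and 3.96% of 10023 with neither. The same 1982 genes were not called lower at a like share under every mimic: the shares with and without a miR-380-3p match were 12.7% and 10.6% under miR-485-3p, 6.81% and 9.64% under miR-99b-5p, and 4.19% and 3.27% under miR-100-3p. All 6 comparisons share the control libraries. The miR-1915-3p mimic, with 37 calls, and the miR-1283 mimic, with 3, gave too few to read.

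The shift of the whole set was small and did not stand clear of the controls. The median log2 change of genes with a match was lower than that of genes without by 0.037 (-0.037). Computed library by library, this difference was 0.032, -0.160, -0.042 and 0.006 in mimic replicates 1 to 4 (-0.041 ± 0.085, SD, n = 4). In control replicates 1, 2, 4 and 5, each set against the other controls, it was 0.066, 0.026, -0.123 and 0.025 (-0.002 ± 0.083). The groups overlapped, and the lowest values belonged to mimic replicate 2 and control replicate 4, the libraries with the steepest GC slopes of the 8 (1.51 and 1.33). Taken within the 4 bins of UTR GC content, the differences were -0.031, -0.123, -0.067 and -0.071 under the mimic and 0.020, 0.002, -0.052 and 0.027 in the controls. Mimic replicate 1 and control replicate 4 still overlapped. The curves of the 8mer genes and of genes without a match are set apart over most of their range, whereas the 6mer curve lies to the right of genes with no match. By library, the median of the 8mer genes minus that of genes with no match was -0.010, -0.268, -0.110 and -0.038 in mimic replicates 1 to 4. In control replicates 1, 2, 4 and 5 it was 0.099, 0.041, -0.158 and 0.034, so here too the groups overlapped.

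**Figure D3:**
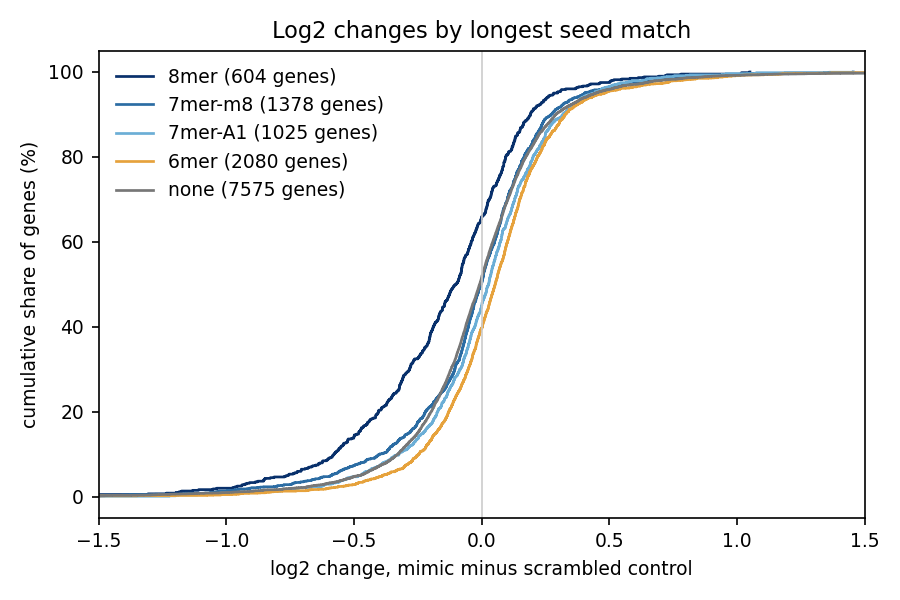
The curves give the cumulative percent of genes (vertical axis) at or below each log2 change, mimic minus scrambled control (horizontal axis, drawn from -1.5 to 1.5), by longest seed match. The 8mer curve (604 genes) lies leftmost, with a median of -0.10, and the 6mer curve (2080 genes) rightmost, with a median of 0.05; genes with no match have a median of -0.01.

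Many of the genes called lower held no match. Of the 715 genes with a 3′ UTR that were called lower, 275 (38.5%) held at least a 7mer-m8 and 279 (39.0%) held no match of 6 bases or more. Among the 84 that fell at least 2-fold, 29 (34.5%) held at least a 7mer-m8 and 43 held none. Among the 796 called higher, 95 (11.9%) held at least a 7mer-m8, against 15.7% of all tested genes with a UTR.

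IGF2 (ENSG00000167244), a fetal growth factor that signals through the IGF1 receptor, holds an 8mer and fell. Its level was 4673, 4815, 4809 and 5359 CPM in the controls and 1396, 1739, 1062 and 1161 CPM under the mimic. The groups were far apart (-1.88 ± 0.17, adjusted p = 3.13e-08), and the mean was 3681 to 5045 CPM under each of the other 5 mimics. A short gene model, ENSG00000240801, lies on the same strand within the 3′ end of IGF2, and reads of both could have been split between them by the authors' counting.

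Other genes of the IGF axis moved both ways. Of 29 tested members 3 were called higher and 3 lower (20.7%, against 10.9% of all genes). Their median was -0.12, against -0.003 over all genes tested. IGF1R, the receptor of IGF2, fell by 0.46 (-0.46 ± 0.09, adjusted p = 0.0013) and SHC1, an adaptor downstream of such receptors that holds a 7mer-m8, fell by 0.41 (-0.41 ± 0.08, adjusted p = 0.000616). A pair of binding proteins that hold IGFs outside the cell rose. IGFBP3 was at 2.24, 1.52, 1.81 and 1.25 CPM in the controls and 3.8, 4.88, 6.04 and 6.35 CPM under the mimic (1.64 ± 0.27, adjusted p = 0.000169). IGFBP5, which holds a 7mer-m8 itself, was at 22.7, 24.5, 21.2 and 16.6 CPM and 32.6, 33.9, 43.2 and 38.5 CPM (0.81 ± 0.10, adjusted p = 5.73e-06). Neither binding protein overlapped between the groups, as in 741 of the 843 genes called higher. With the GC slope as a covariate 8 members were called lower.

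Receptors and a transducer of the TGF-beta family fell. TGFBR1, the type I receptor kinase of TGF-beta, was at 32.7, 32.6, 27.7 and 27.5 CPM in the controls and 14.1, 9.11, 7.48 and 9.38 CPM under the mimic (-1.60 ± 0.19, adjusted p = 1.03e-06). ENG, endoglin, an accessory receptor, was a weakly expressed gene without a match, at 3.16 to 4.49 CPM in the controls and 0.641 to 2.48 CPM under the mimic (-1.48 ± 0.26, adjusted p = 0.000325). SMAD5, a transducer of BMP signals with 2 7mer-m8 matches, was at 95, 93.8, 82.7 and 101 CPM and 58.4, 48.1, 42.5 and 42.1 CPM (-0.97 ± 0.13, adjusted p = 1.32e-05). None of these groups overlapped, as in 705 of the 791 genes called lower, and separate groups were a condition of a rule that chose TGFBR1. The ligand TGFB3 fell (-0.96 ± 0.17, adjusted p = 0.000313) and the ligand GDF11 rose (0.52 ± 0.09, adjusted p = 0.000151). In all, 5 of 35 tested members of TGF-beta and BMP signalling were called lower and 1 higher (17.1%, against 10.9% of all genes). Their median was -0.04, and the higher count was 2 without mimic replicate 1 or 2.

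UBR7, RAB21 and SUMO2 were the fallers with a match that had the smallest p-values. UBR7 (ENSG00000012963), a ubiquitin ligase of histones, was at 77.1, 81.5, 79.3 and 82.5 CPM in the controls and 34.6, 37.4, 28.9 and 35.2 CPM under the mimic (-1.24 ± 0.07, adjusted p = 1.41e-11). RAB21 (ENSG00000080371), a GTPase of early endosomes, was at 59.5, 59.4, 51.5 and 56.0 CPM and 21.0, 22.1, 14.3 and 15.0 CPM (-1.65 ± 0.12, adjusted p = 1.05e-09). SUMO2, a small modifier joined to nuclear proteins, was at 434, 421, 435 and 393 CPM and 204, 241, 177 and 204 CPM (-1.03 ± 0.08, adjusted p = 5.96e-09). In all 3 genes the highest mimic library lay far below the lowest control, and separate groups were a condition of a rule that chose RAB21.

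HNRNPR (ENSG00000125944), an RNA-binding protein of the hnRNP family, was at 517, 522, 537 and 512 CPM in the controls and 319, 339, 294 and 300 CPM under the mimic (-0.74 ± 0.07, adjusted p = 8.77e-08). DNAJA2, a co-chaperone of HSP70, fell by 0.85 (-0.85 ± 0.07, adjusted p = 6.04e-09). STK26, a kinase of the germinal centre family whose identifier, ENSG00000134602, carries the symbol RBM4B in the table, was at 69.3 to 87.1 CPM in the controls and 18.4 to 31.9 CPM under the mimic (-1.70 ± 0.15, adjusted p = 1.27e-08). TMEM30A, the subunit that brings phospholipid flippases to the membrane, was at 65.3 to 80.1 and 18.3 to 31.1 CPM (-1.66 ± 0.16, adjusted p = 3.42e-08). It was also called lower under miR-99b-5p (-1.60), miR-485-3p (-1.47) and miR-100-3p (-0.59), but not under miR-1283 (0.29) or miR-1915-3p (0.38). Each of these genes was separated between the groups in all 8 libraries, as were 705 of the 791 genes called lower. Separate groups were a condition of a rule that chose STK26 and TMEM30A.

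Further fallers with a match were NME7, a nucleoside diphosphate kinase of the centrosome (-1.04 ± 0.10), TRIQK (-1.38 ± 0.13), SH3BGRL2 (-0.92 ± 0.09), CLGN, a chaperone of the endoplasmic reticulum (-1.31 ± 0.14), RAB23, a GTPase that restrains Hedgehog signalling (-1.05 ± 0.12), and HIPK3, a nuclear kinase (-1.41 ± 0.17). All 6 had adjusted p-values between 3.35e-08 (NME7) and 2.93e-06 (HIPK3) in edgeR. PCDH19, a protocadherin of neuronal adhesion with 2 7mer-m8 matches, was at 69.1, 75.1, 57.7 and 75.8 CPM in the controls and 31.7, 24.7, 17.4 and 18.7 CPM under the mimic (-1.60 ± 0.14, adjusted p = 1.74e-08).

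In 3 of the families to which these genes belong the share called was near the 10.9% of all genes, at 10.2% of RAB GTPases, 12.3% of genes of ubiquitin and SUMO conjugation and 11.3% of HSP70 and HSP40 chaperones. Of 49 tested RAB GTPases 4 were called lower and 1 higher (0 to 2 with single libraries left out), with a median of -0.04; beside RAB21 and RAB23 the lower ones were RAB12 (-0.36 ± 0.08) and RAB22A (-0.28 ± 0.07), and RAB22A was not called without miR-380-3p replicate 2. Of 57 genes of ubiquitin and SUMO conjugation 3 were called lower, UBR7, SUMO2 and the SUMO protease SENP7 (-0.85 ± 0.17), and 4 higher, among them the conjugating enzyme UBE2Z (0.32 ± 0.06); the higher count was 2 without miR-380-3p replicate 4 or without control replicate 5, and the lower count 6 with the GC slope as a covariate. Of 9 flippase genes 2 were called (22.2%, against 10.9% of all genes), both lower, TMEM30A and the flippase ATP8B2 (-0.73 ± 0.08), which holds an 8mer. Of 53 HSP70 and HSP40 chaperones 4 were called lower and 2 higher, DNAJA2 and the co-chaperone BAG2 (-0.54 ± 0.10) among the former; the lower count was 11 with the GC slope as a covariate, and the higher count fell to 0 without miR-380-3p replicate 3 or 4 or without control replicate 2 or 4.

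BCL2, the founding inhibitor of apoptosis, has 2 7mer-m8 matches and fell. It was at 41.8, 42.1, 35.6 and 35.7 CPM in the controls and 23.2, 16.8, 17.9 and 20.0 CPM under the mimic (-1.0 ± 0.13, adjusted p = 8.57e-06), with no overlap. In its family 2 of 17 tested genes were called lower, the other being BNIP3, and 2 higher, among them BCL2L13 (0.30 ± 0.08, adjusted p = 0.01). The family had 23.5% called, against 10.9% of all genes, and 1 was called higher without miR-380-3p replicate 3 or 4 or control replicate 5.

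PDK1, the mitochondrial kinase that holds back pyruvate oxidation under hypoxia, holds an 8mer and fell. It was at 72.1, 80.8, 63.5 and 55.2 CPM in the controls and 37.9, 29.3, 25.9 and 26.7 CPM under the mimic (-1.18 ± 0.13, adjusted p = 5.59e-07). Hypoxia genes without a match also fell: the angiogenic factor VEGFA (-0.53 ± 0.07, adjusted p = 3.74e-06), the mitophagy receptor BNIP3 (-0.33 ± 0.07, adjusted p = 0.00224) and the glucose transporter SLC2A1 (-0.57 ± 0.15, adjusted p = 0.0129), which was not called without miR-380-3p replicate 4. ARNT, the partner of the hypoxia-inducible factors, rose slightly (0.27 ± 0.06, adjusted p = 0.0061). In the list of glycolysis and hypoxia 8 of 44 tested genes were called lower and 2 higher (22.7%, against 10.9% of all genes), with a median of -0.10. The lower count was 4 without miR-380-3p replicate 3, without replicate 4 or without control replicate 2, and 5 without control replicate 1; the higher count was 1 without any of mimic replicates 1, 3 and 4 or control replicates 1, 4 and 5.

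Genes of catecholamine synthesis and storage, which mark sympathetic cells, fell. TH, the first enzyme of the pathway, was at 241, 272, 329 and 275 CPM in the controls and 106, 196, 102 and 94.7 CPM under the mimic (-1.16 ± 0.30, adjusted p = 0.0101). DDC, the decarboxylase that makes dopamine, was at 394, 404, 410 and 372 CPM and 220, 258, 209 and 214 CPM (-0.81 ± 0.08, adjusted p = 2.02e-07). DBH, which makes noradrenaline, was at 1580, 1653, 1566 and 1853 CPM and 1086, 1367, 1062 and 949 CPM (-0.58 ± 0.13, adjusted p = 0.00308). Mimic replicate 2 was the highest of its group in all 3 enzymes. No groups overlapped, as in 705 of the 791 genes called lower.

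The vesicle proteins of the same pathway followed. SLC18A1 (-0.98 ± 0.17, adjusted p = 0.00025) and SLC18A2 (-0.83 ± 0.13, adjusted p = 6.66e-05) load amines into vesicles, and CYB561 (-0.98 ± 0.14, adjusted p = 1.89e-05) is the cytochrome that keeps DBH supplied with reduced ascorbate. Together with MYCN (-0.32 ± 0.08, adjusted p = 0.0104) and DLK1, described below, these made 8 of 27 tested adrenergic identity genes lower, with 2 higher and a median of -0.19. This list had 37.0% called, against 10.9% of all genes. The higher count was 1 without miR-380-3p replicate 4. None of the 8 held a match of 7mer-m8 or longer. Against the mean of the other 5 mimics, where 9.04% of all genes were called lower, DBH (-0.21 ± 0.10, adjusted p = 0.139) and MYCN (-0.13 ± 0.06, adjusted p = 0.152) were not called. Against the control, DDC and SLC18A1 were also called lower under miR-99b-5p (-0.83 and -1.27) and miR-485-3p (-0.42 and -0.56), and DDC under miR-100-3p (-0.29). CYB561 was lower under miR-485-3p (-0.67) and higher under miR-99b-5p (0.40), and SLC18A2 was called under none of the other mimics. In bulk RNA fewer cells of a type and less RNA per cell cannot be told apart.

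The 14q32 locus that encodes miR-380-3p held lower transcripts. DLK1, a Notch-like membrane protein of neuroendocrine cells, was at 1573, 1674, 1767 and 1623 CPM in the controls and 750, 1074, 662 and 752 CPM under the mimic (-1.04 ± 0.18, adjusted p = 0.000243). RTL1, a gene derived from a retrotransposon, was at 249, 276, 273 and 249 CPM and 118, 122, 109 and 97.5 CPM (-1.23 ± 0.14, adjusted p = 1.19e-06). Transcripts of the opposite strand cross RTL1, and whether the authors' counting used strand is not given in the sources used here. The noncoding RNA MEG3 (-1.66 ± 0.44, adjusted p = 0.0129), at 0.146 to 1.29 CPM, and BEGAIN (-0.69 ± 0.21, adjusted p = 0.0337) were also lower. That made 4 of 8 tested genes (50%, against 10.9% of all genes called), with a median of -0.52. The count was 2 without miR-380-3p replicate 4, MEG3 was not called without that library, and BEGAIN was not called without mimic replicate 1, 3 or 4 or control replicate 4 or 5. RTL1 averaged 249 and 271 CPM under miR-100-3p and miR-1283 and 170 to 186 CPM under the other 3 mimics.

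Receptors for neurotransmitters were lower more often than higher. The muscarinic receptor CHRM1 was at 8.04 to 9.93 CPM in the controls and 2.12 to 4.88 CPM under the mimic (-1.53 ± 0.23, adjusted p = 5.11e-05). The serotonin-gated channel HTR3A was at 80.6, 80.6, 82.8 and 93.3 CPM and 41.9, 49.0, 38.3 and 30.0 CPM (-1.09 ± 0.11, adjusted p = 8.3e-08). CHRM3, another muscarinic receptor and the one of these with an 8mer, fell (-0.85 ± 0.14, adjusted p = 0.000112), as did the nicotinic subunit CHRNA7 (-0.50 ± 0.08, adjusted p = 8.33e-05). CHRM1 was also called lower under miR-485-3p (-2.07), and HTR3A and CHRNA7 under miR-99b-5p (-1.46 and -0.32) and miR-485-3p (-0.35 and -0.24). HTR3A was lower under miR-100-3p too (-0.40), while CHRM3 was higher under miR-99b-5p (1.11). In all 5 of 33 tested receptors were called lower and 2 higher (21.2%, against 10.9% of all genes), with a median of -0.08. The higher count was 0 without mimic replicate 3 or 4 or control replicate 4 and 1 without mimic replicate 1 or control replicate 1 or 2.

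Large falls without any seed match were found in unrelated genes. PPIL3, a peptidyl-prolyl isomerase of the spliceosome, was at 18.4, 18.0, 20.0 and 18.9 CPM in the controls and 6.08, 5.39, 5.11 and 6.76 CPM under the mimic (-1.69 ± 0.14, adjusted p = 6.04e-09). ITGB5, an integrin subunit that binds vitronectin, was at 95.4, 98.5, 91.9 and 122 CPM and 45.2, 48.6, 28.9 and 28.8 CPM (-1.43 ± 0.13, adjusted p = 3.41e-08). The nucleotide receptor P2RY6 (-1.45 ± 0.17, adjusted p = 1.46e-06) and the ammonium transporter RHBG (-1.28 ± 0.16, adjusted p = 2.81e-06) fell by a like amount. RHBG was also called lower than the control under miR-99b-5p (-1.38) and miR-100-3p, and P2RY6 under miR-99b-5p (-0.49). ITGB5 was higher than the control under miR-99b-5p (0.94), and PPIL3 was called under none of the other mimics. Separate groups were a condition of the choice of these 4 genes.

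Of 26 genes of the neuronal cytoskeleton 42.3% were called, against 10.9% of all genes. There were 11 called higher, 0 lower and 15 not called, with a median of 0.18. VIM, an intermediate filament of immature and mesenchymal cells, was at 47.5, 52.3, 56.4 and 34.2 CPM in the controls and 123, 140, 142 and 147 CPM under the mimic (1.54 ± 0.13, adjusted p = 1.27e-08). It was counted in this list and not among the mesenchymal genes described below. STMN2, a microtubule regulator of growth cones, was at 229, 208, 229 and 222 CPM and 392, 457, 555 and 602 CPM (1.17 ± 0.11, adjusted p = 1.95e-08). The neurofilaments NEFL (0.71 ± 0.06, adjusted p = 6.04e-09) and NEFM (0.65 ± 0.08, adjusted p = 3.5e-06) and the microtubule protein MAPT (0.52 ± 0.07, adjusted p = 7.33e-06) rose by less. DESeq2, and the fit that left out mimic replicate 2, each called 1 lower. With the GC slope as a covariate or with the 8 libraries alone 2 were lower. Against the control, VIM (0.68), NEFM (0.58), MAPT (0.60) and NEFL (0.44) were also called higher under miR-99b-5p. NEFM was higher under miR-485-3p (0.42) and miR-100-3p (0.40) too, and NEFL under miR-100-3p (0.23). VIM was lower under miR-485-3p (-0.49) and miR-100-3p (-0.47), and STMN2 was called under none of the other mimics.

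**Figure D4:**
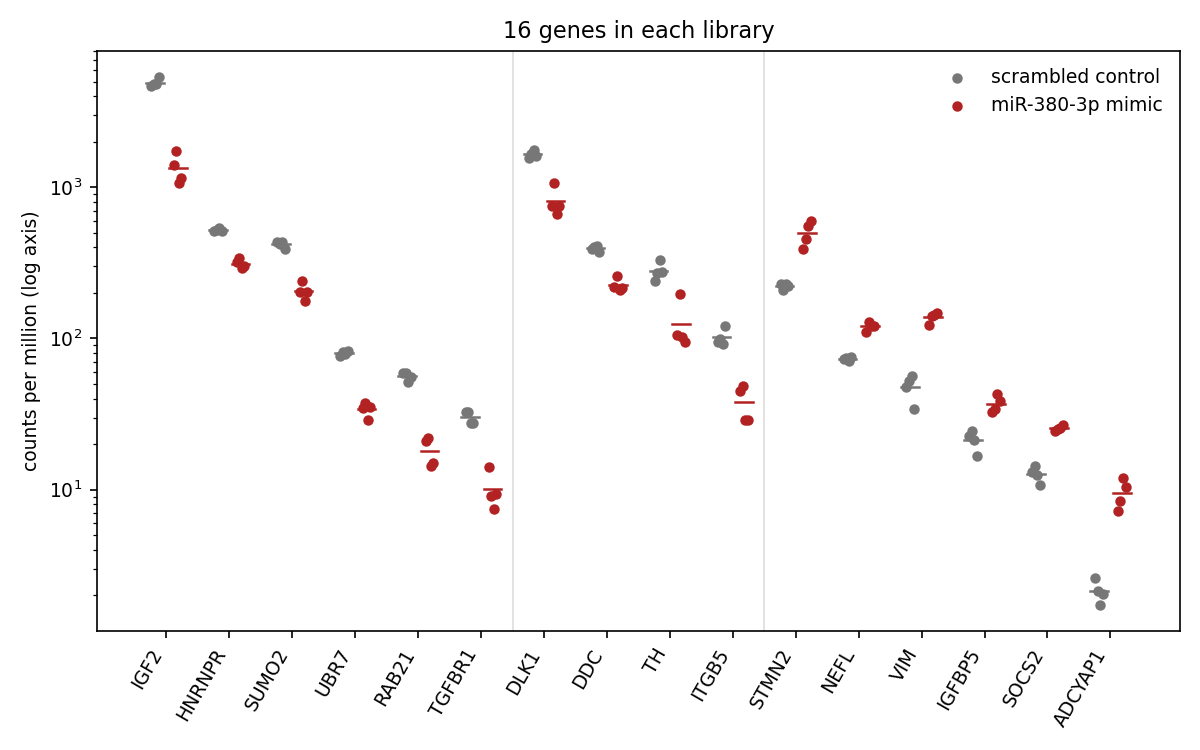
Each point is the level of a gene in one library, in CPM on a log axis, in the scrambled control (grey) and under the mimic (red), with a bar at the mean of the 4 libraries. From left to right are 6 fallers with a seed match of at least 7mer-m8, 4 fallers without one and 6 genes that rose; the groups do not overlap in any of them, which was a condition for choosing several of the 16.

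Cues and channels of neurons showed rises among a majority of uncalled genes. SLIT2, a repellent of growing axons, was at 14.1, 9.96, 12.3 and 13.0 CPM in the controls and 25.0, 21.9, 29.3 and 32.2 CPM under the mimic (1.14 ± 0.14, adjusted p = 2.93e-06). It was also called higher under miR-100-3p (1.15) and miR-485-3p (0.65), and was not called under the remaining mimics. The semaphorins SEMA3C (1.25 ± 0.23, adjusted p = 0.000576) and SEMA6D (0.57 ± 0.12, adjusted p = 0.00146) and the ephrin EFNB2 (0.64 ± 0.12, adjusted p = 0.000426) rose, while the semaphorin receptor PLXNA2 fell (-0.56 ± 0.10, adjusted p = 0.00061). Of 47 axon guidance genes 10 were called higher and 2 lower (25.5%, against 10.9% of all genes), with a median of 0.03. The higher count was 6 without miR-380-3p replicate 3 or control replicate 4 and with a mean of at least 5 CPM, and the lower count was 4 with DESeq2, with the GC slope as a covariate or with the 8 libraries alone.

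Of 37 tested voltage-gated channel genes 6 were called higher and 1 lower (18.9%, against 10.9% of all genes). The other 30 were not called, and the median was 0.08. KCNB2, a delayed rectifier, was at 3.11 to 3.69 CPM in the controls and 7.14 to 8.35 CPM under the mimic (1.22 ± 0.18, adjusted p = 2.86e-05). SCN9A, the sodium channel of sympathetic and pain neurons, was at 6.37, 5.93, 4.60 and 5.85 CPM and 13.9, 8.67, 15.0 and 14.2 CPM (1.19 ± 0.21, adjusted p = 0.000256). SCN1A, another sodium channel, was at 35.3, 32, 25.5 and 20.9 CPM and 63.5, 36.0, 66.9 and 65.4 CPM (1.03 ± 0.17, adjusted p = 0.000126). Against the control, SCN9A was also called higher under miR-99b-5p (1.13) and lower under miR-485-3p (-0.96). SCN1A and KCNB2 were called under none of the other mimics. Mimic replicate 2 was the lowest of its group in both sodium channels and in SCN1A lay next to the controls. Both rose with a longest annotated 3′ UTR that holds matches of at least 7mer-m8, 2 in SCN9A and 6 in SCN1A. That of SCN1A has 12188 bases and spans introns, with its matches spread over chr2:165986508-166054648. Some of the 6 may therefore lie outside the 3′ UTR of other SCN1A transcripts. KCNMA1, a potassium channel opened by calcium, rose (0.65 ± 0.13, adjusted p = 0.00129) and CACNA2D1, an auxiliary subunit of calcium channels with 4 matches, fell (-0.63 ± 0.15, adjusted p = 0.00693). The lower count was 2 without mimic replicate 2 or control replicate 4.

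Cadherins other than PCDH19 rose where they were called. PCDH7 was at 12.5, 12.7, 10.7 and 13.1 CPM in the controls and 20.4, 19.8, 20.4 and 20.5 CPM under the mimic (0.73 ± 0.12, adjusted p = 0.000123). PCDH17 (0.77 ± 0.14, adjusted p = 0.000499), PCDH10 (1.07 ± 0.22, adjusted p = 0.00183) and CDH13 (0.71 ± 0.15, adjusted p = 0.00193) rose too, though the libraries of CDH13 overlapped. Of 29 adhesion genes of this family 10 were called higher and 1 lower (37.9%, against 10.9% of all genes), with a median of 0.12. The higher count was 6 without miR-380-3p replicate 3, and the lower count was 3 without miR-380-3p replicate 2 and 2 without mimic replicate 1 or control replicate 4.

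Neuropeptides moved both ways. ADCYAP1, which encodes the neuropeptide PACAP, was at 2.61, 2.13, 1.73 and 2.04 CPM in the controls and 7.27, 8.38, 11.9 and 10.4 CPM under the mimic (2.16 ± 0.19, adjusted p = 1.67e-08). Its mean was 0.953 to 1.88 CPM under the other 5 mimics. Somatostatin, SST, was at 15.6, 14.5, 20.9 and 20.3 CPM and 25.0, 44.0, 41.1 and 44.1 CPM (1.12 ± 0.24, adjusted p = 0.00218). CPE (0.54 ± 0.09, adjusted p = 0.000133), an enzyme that trims peptide precursors, and the secretogranin SCG2 (0.55 ± 0.10, adjusted p = 0.000651) rose, while chromogranin A, CHGA, fell (-0.54 ± 0.11, adjusted p = 0.00224). Against the control, SCG2 was also called higher under miR-99b-5p (1.31) but lower under miR-485-3p (-0.56), and SST was higher under miR-100-3p (0.92). CHGA was also lower under miR-485-3p (-0.84), miR-100-3p (-0.38) and miR-99b-5p (-0.33). CPE was called under none of the other mimics. Of 17 tested granins and neuropeptides 5 were called higher and 2 lower (41.2%, against 10.9% of all genes), with a median of 0.12.

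**Figure D5:**
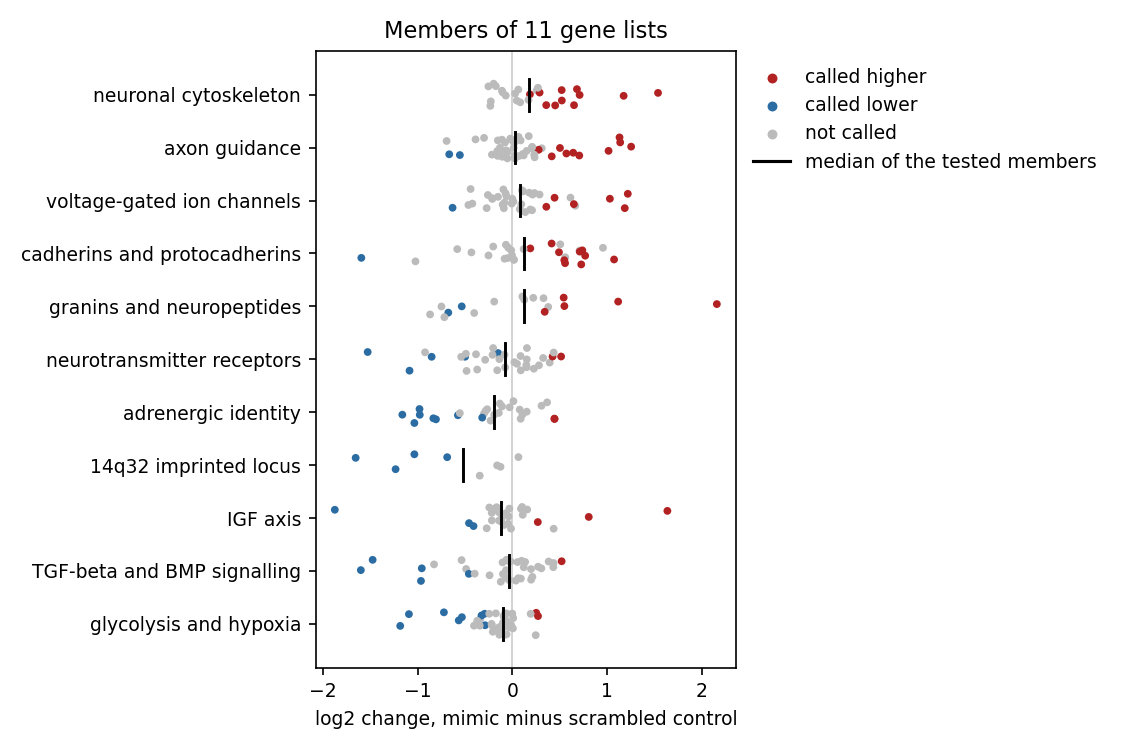
Each point is a tested member of 1 of 11 gene lists, placed by its log2 change, mimic minus scrambled control, and coloured by whether it was called higher (red), lower (blue) or not called (grey); the black bar is the median of the tested members and the vertical spread carries no value. The median is 0.18 in the neuronal cytoskeleton and -0.52 in the 14q32 locus, against -0.003 over all genes tested.

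Other rises of about 2-fold were found outside these lists. SOCS2, an inhibitor of cytokine and growth hormone signalling, was at 13.0, 14.2, 12.5 and 10.7 CPM in the controls and 24.5, 25.0, 25.7 and 26.9 CPM under the mimic (1.02 ± 0.08, adjusted p = 6.04e-09). FOXC1, a forkhead factor of mesenchyme and neural crest that holds an 8mer, was at 7.31, 7.53, 7.31 and 5.13 CPM and 13.1, 13.2, 13.6 and 16.4 CPM (1.05 ± 0.14, adjusted p = 6.06e-06). The homeobox factor DRGX of sensory neurons (1.03 ± 0.12, adjusted p = 9.39e-07), the factor TOX (1.07 ± 0.15, adjusted p = 1.32e-05), the exchange factor ARHGEF28 (1.17 ± 0.15, adjusted p = 3.37e-06) and TTC9 (1.01 ± 0.13, adjusted p = 3.63e-06) rose by about as much. Against the control, TOX was also called higher under miR-99b-5p (1.02), and TTC9 under miR-485-3p (0.71) and miR-99b-5p (0.64). DRGX was lower under miR-99b-5p (-1.57) and miR-485-3p (-0.99). SOCS2, FOXC1 and ARHGEF28 were called under none of the other mimics. Separate groups were a condition here too.

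Mesenchymal genes moved both ways. FN1, fibronectin, rose (0.82 ± 0.16, adjusted p = 0.000794), as did ANXA2, an annexin of the membrane (0.86 ± 0.11, adjusted p = 3.76e-06). The receptor NOTCH2, at 1.22 to 1.58 CPM in the controls and 0.507 to 0.699 CPM under the mimic, was lower (-1.20 ± 0.32, adjusted p = 0.0126). Of 20 tested members 2 were called higher and 4 lower (30%, against 10.9% of all genes), with a median of -0.05. VIM was counted with the neuronal cytoskeleton and not here. The lower count was 2 without mimic replicate 3 or 4 or control replicate 1, 2 or 4. With the GC slope as a covariate 5 were higher and 5 lower. Against the mean of the other 5 mimics 5 were called higher and 2 lower, with a median of 0.16.

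Of the silencing machinery 13.3% of genes were called, against 10.9% of all genes. DICER1, which cuts microRNA precursors, holds a 7mer-m8 and was not called (-0.12 ± 0.14, adjusted p = 0.682). Of 30 tested genes of microRNA processing and silencing 3 were called lower, the decapping enzyme DCP2 (-0.73 ± 0.15), its cofactor DCP1A (-0.41 ± 0.10, adjusted p = 0.0075) and the Argonaute partner TNRC6C (-0.45 ± 0.10), and LIN28A, which blocks the processing of let-7, was called higher (0.84, adjusted p = 0.0476). With the GC slope as a covariate 7 were called lower and 3 higher. DCP1A was not called without control replicate 5, and LIN28A was not called without any one of mimic replicates 1, 3 and 4 or control replicates 1, 4 and 5. The LIN28A call was also lost with DESeq2, with no filter on low counts and with the 8 libraries alone. OAS1, an antiviral enzyme induced by interferon, fell (-1.18 ± 0.17, adjusted p = 3.2e-05), 1 of 2 called lower among 18 antiviral genes (11.1%), with 0 higher. The other, IFI6 (-0.78, adjusted p = 0.0432), was not called without any one of mimic replicates 1, 3 and 4 or control replicates 1, 2 and 4. Nor was IFI6 called with DESeq2, with no filter on low counts or with the 8 libraries alone. ALK, the receptor kinase often mutated in neuroblastoma (-0.25 ± 0.10, adjusted p = 0.113), and the housekeeping genes GAPDH (-0.08 ± 0.08, adjusted p = 0.628) and ACTB (-0.04 ± 0.11, adjusted p = 0.877) were not called; the sign of ACTB turned with the GC slope as a covariate and without control replicate 4.

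The share called was 6.12% in DNA replication, 7.89% in mitosis, 12% in cholesterol synthesis, 14.3% in unfolded protein and amino acid stress and 2.67% in the respiratory chain, against 10.9% of all genes. Of 49 DNA replication genes 2 were called higher and 1 lower, of 38 mitosis genes 0 and 3, of 25 cholesterol synthesis genes 2 and 1, of 28 genes of unfolded protein and amino acid stress 0 and 4, and of 75 genes of the respiratory chain and ATP synthase 0 and 2. These counts moved with the processing and with single libraries. With the GC slope as a covariate 10 respiratory genes were lower, 5 mitosis genes higher, 5 cholesterol genes higher and 3 DNA replication genes lower. Without miR-380-3p replicate 3 they were 0 higher (DNA replication), 1 lower (mitosis), 1 higher (cholesterol), 0 lower (stress) and 1 lower (respiration), and without replicate 2 the respiratory genes called lower were 7.

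The second comparison set the mimic against the mean of the other 5 mimics, which leaves out the scrambled control and asks what differed from other mimic transfections. It called 20.9% of all genes, 11.9% higher (1788) and 9.04% lower (1361). The comparisons share the miR-380-3p libraries, so calls in common are no independent support. Of the 843 genes higher than control 718 were also higher here, of the 791 lower 673 were also lower, and 0 changed sides. Genes with an 8mer were called lower in 31.3% of cases and those with no match in 6.68%. DRGX was higher by 1.65 (1.65 ± 0.08, adjusted p = 2.1e-13) and ADCYAP1 by 2.64 (2.64 ± 0.13, adjusted p = 1.14e-13). SH3BGRL2 (-1.17 ± 0.07, adjusted p = 6.62e-12), PDK1 (-1.39 ± 0.11, adjusted p = 5.8e-10) and RAB21 (-1.68 ± 0.10, adjusted p = 5.13e-12) were lower. TMEM30A (-1.06 ± 0.13) and BCL2 (-0.71 ± 0.11) were lower too, and NOTCH2 was not called (0.06, adjusted p = 0.904). The mean of the other mimics is not a neutral baseline, since 3176 genes were called under miR-485-3p and 2498 under miR-99b-5p against the control. There DRGX was lower under miR-99b-5p (-1.57) and miR-485-3p (-0.99), and ADCYAP1 under miR-99b-5p (-1.15). SH3BGRL2 was higher under miR-485-3p (0.46) and miR-99b-5p (0.48), and PDK1 under miR-99b-5p (0.60).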

How the data were processed

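The authors deposited a table of expected counts per gene, estimated and not normalized, of which 10.2% were not whole numbers, with a column of gene length (not used). Reads were aligned with STAR to hg19, per the submitters' processing notes; the STAR version, counting tool and annotation are not given in the sources used here. The table has 30887 rows, of which 951 held no count. Counts were rounded and filtered with filterByExpr in edgeR 4.0.16 (15058 genes kept), scaled by TMM, and fitted to all 28 libraries (7 groups, 21 residual degrees of freedom) with the quasi-likelihood test, two-sided, Benjamini-Hochberg adjusted. DESeq2 1.42.0, limma-voom (limma 3.58.1), other scalings, filters, covariates and leaving out each library were alternatives. CPM are counts scaled by effective library size. Both the fit and the site search were tested on simulated data.

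The search for seed matches took, for each gene, its longest annotated 3′ UTR (50 bases or more) in GENCODE release 29 (GRCh38), which differs from the hg19 of the counts; genes were joined by Ensembl identifier, and no hg19 coordinate is printed. The longest UTR can span exons that other transcripts of the gene translate. The motifs were ATTACATA (8mer), ATTACAT (7mer-m8), TTACATA (7mer-A1) and TTACAT (6mer), on the messenger strand.

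Members and gene lists were chosen with earlier results of these data known. Genes named are the 15 largest rises and 15 largest falls called, with separate groups and a mean log2 CPM of 2 or more, the 12 fallers with a 7- or 8-base match and the smallest p, up to 5 called members of each of 31 lists, background genes, and 8 rises and 8 falls called largest in both comparisons; not all are described. HAND2 and GATA3 were named as markers. Some results are not reported here. Same-numbered mimic and control libraries deviated with correlations of 0.113, 0.030 and -0.092, so the numbers were not taken to pair samples. Intervals cover counting error only, and PCR duplicates cannot be seen in these counts.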

Additional observations from a re-analysis of the deposited data

Results flagged for a closer look

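In 13 of 208 groups of 4 libraries, for the genes named above, 1 library stood apart from the other 3 by more than Dixon's 95% limit for 4 values; chance flags about 1 in 20 groups. Under the mimic, replicate 2 stood apart in 4 genes. TH was at 196 CPM there against 94.7 to 106 in the others, SCN1A at 36.0 against 63.5 to 66.9, SCN9A at 8.67 against 13.9 to 15.0, and RAB22A at 62.0 against 71.2 to 73.0. In TH, SCN1A and SCN9A this library lay nearer to the controls than the others did, and it has the steepest GC slope of the 4 (1.51); the part of either in these values was not tested. SST was at 25.0 CPM in replicate 1 against 41.1 to 44.1, and FOXC1 at 16.4 CPM in replicate 4 against 13.1 to 13.6.

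Among the controls, replicate 5 stood apart in 5 genes. It was lower in ARHGEF28 (11.4 CPM against 16.2 to 17.1) and FOXC1 (5.13 against 7.31 to 7.53), and higher in CYB561 (587 against 458 to 478), P2RY6 (19.5 against 13.8 to 14.2) and TGFB3 (8.62 against 6.92 to 7.16). In all 5 genes it lay farther from the mimic libraries than the other controls, and the calls held without it. GATA3 was at 301 CPM in control replicate 4 against 224 to 236, and SEMA3C at 1.22 CPM in control replicate 2 against 0.941 to 0.987.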

How the results depend on the processing

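Of the 104 genes named, 92 kept their direction and side of the threshold under every one of the 17 alternatives that tested them. With the genes that the rules chose but the text does not describe, 103 of 136 did so. Leaving out 1 library at a time gave 1056 to 1755 genes called (520 to 911 higher, 536 to 844 lower), 144 to 247 with a 2-fold change, 2159 to 3103 against the other mimics, 10.5% to 14.2% of the genes with a match called lower and a median shift of -0.062 to -0.00083 for those genes; the end near 0 came without miR-380-3p replicate 2. With the GC slope of each library as a covariate 2778 genes were called (1334 higher, 1444 lower) and 23.7% of the genes with a match were lower; the cause was not tested. A mean of at least 5 CPM, which leaves out weakly expressed genes, left 66 genes with a 2-fold change and 15.8% of matched genes lower. No filter gave 510 higher and 10.4%. The cause of these shifts was not tested. The share was 22.2% with 8mers only, 8.57% with 6mers or longer, 16.8% in the shortest UTR and 9.02% for coding sequence. The median shift, -0.037 as reported, turned to 0.025 with 6mers or longer and 0.00307 for coding sequence, and was -0.106 with 8mers only, -0.081 with the GC slope, -0.071 within bins of UTR GC content and -0.012 with the replicate block. DESeq2 called 1790 genes and limma-voom 1648. With the replicate number as a block, although the numbers do not pair the samples, 1746 genes were called, 172 with a 2-fold change, and ALK was called lower. ACTB, not called, was 0.0217 with the GC slope and -0.0855 to 0.00595 with single libraries left out, and GATA3, not called, was -0.0206 with the block and -0.0147 to 0.186 with single libraries left out. At these depths a gene near 1 CPM rests on few reads.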
